A study of Mus musculus with 2 samples.

Results

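The Platr genes (pluripotency-associated transcripts) are mouse long noncoding RNA genes named for their expression in embryonic stem cells and their loss on differentiation. The genes described here are 10 of them: Platr3, Platr4, Platr5, Platr7, Platr10, Platr14, Platr20, Platr22, Platr26 and Platr27. They were chosen by name with earlier results of these data known, and every probe set annotated with 1 of these symbols and no other was taken. Of the 10 genes, 9 had such a probe set, 1 each, among 33793 probe sets on the array and 22180 genes with a symbol of their own. Platr3 had no probe set of its own and was not measured.

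Transcript levels were measured on an Affymetrix array in 2 samples of a mouse embryonic stem cell line called Niwa, 1 of a stable line carrying EWS-OCT4A-GFP, called the fusion sample here, and 1 of a control stable line carrying GFP. EWS-OCT4A joins the EWS protein to OCT4A, the POU transcription factor that holds stem cells in the pluripotent state, and fusions of this kind have been found in certain human tumours. The lines were both grown with LIF, the cytokine that sustains mouse embryonic stem cells, and both received doxycycline at 1 µg/ml, which in these cells lowers the endogenous OCT-4. The comparison asks which transcripts differ between the cells with the fusion and the cells with GFP alone when endogenous OCT-4 is lowered. The sources used here do not give the length of treatment, the promoter driving the transgenes or whether a line was 1 clone or a pool. The series' design text speaks of duplicate experiments, whereas the table holds 1 column for each line. There was thus no replicate spread and no test, and no value here carries an error. No sample without doxycycline was analysed, so a difference cannot be assigned to 1 line or the other.

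Long noncoding RNAs are transcribed by RNA polymerase II, spliced and often kept in the nucleus, and many are made from loci near developmental genes or from the repeats of endogenous retroviruses. In mouse embryonic stem cells several of them have been tied to the pluripotency network of OCT4, SOX2 and NANOG, either as its targets or as regulators of genes within it. When OCT4 is removed from such cells they leave the pluripotent state and take on features of trophectoderm, the outer lineage of the blastocyst that forms the placenta.

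Promoter sequences are shown first, and whether they have a part in the differences between the samples was not tested. RefSeq (build GRCm38.p6) gave a window of 300 bases, from 250 before the start to 50 after it, for 8 of the 10 genes, and none for Platr4 and Platr27. The windows of the 3 genes with the largest differences between the samples, Platr10, Platr7 and Platr22, and of Platr5, the 1 measured gene that was lower with the fusion, read as follows, 5′ to 3′ in the direction of transcription. Capitals mark a match to any of 7 motifs on either strand: ATGCAAAT (the octamer of POU factors), CATTGT (the SOX side of the joint OCT4-SOX2 site), the joint site itself (CATTGT, any 1 base, then ATGCAAAT), AAGGTCA (ESRRB and related nuclear receptors), GGGTGTG (KLF factors), GGAATG (TEAD factors) and GGAAGGAA (repeated ETS cores).
Platr10, chr3:75655682-75655981, minus strand: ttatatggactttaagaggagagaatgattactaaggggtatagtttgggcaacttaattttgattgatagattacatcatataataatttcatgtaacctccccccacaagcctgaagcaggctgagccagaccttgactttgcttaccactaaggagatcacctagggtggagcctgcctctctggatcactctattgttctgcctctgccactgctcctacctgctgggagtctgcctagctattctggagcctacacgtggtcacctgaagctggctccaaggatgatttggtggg
Platr7, chr10:84553289-84553588, minus strand: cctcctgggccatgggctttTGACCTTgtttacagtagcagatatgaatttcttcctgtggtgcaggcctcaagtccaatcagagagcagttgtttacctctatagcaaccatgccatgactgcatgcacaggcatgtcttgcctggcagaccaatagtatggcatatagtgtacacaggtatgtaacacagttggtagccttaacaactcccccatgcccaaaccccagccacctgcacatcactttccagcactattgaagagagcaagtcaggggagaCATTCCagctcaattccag
Platr22, chr1:136695961-136696260, plus strand: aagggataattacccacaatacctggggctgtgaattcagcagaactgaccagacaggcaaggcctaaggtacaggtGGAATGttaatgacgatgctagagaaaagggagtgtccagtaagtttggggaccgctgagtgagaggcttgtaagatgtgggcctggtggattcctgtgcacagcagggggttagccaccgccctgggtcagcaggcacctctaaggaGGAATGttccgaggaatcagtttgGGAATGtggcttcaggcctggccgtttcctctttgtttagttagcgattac
Platr5, chr1:88754640-88754939, plus strand: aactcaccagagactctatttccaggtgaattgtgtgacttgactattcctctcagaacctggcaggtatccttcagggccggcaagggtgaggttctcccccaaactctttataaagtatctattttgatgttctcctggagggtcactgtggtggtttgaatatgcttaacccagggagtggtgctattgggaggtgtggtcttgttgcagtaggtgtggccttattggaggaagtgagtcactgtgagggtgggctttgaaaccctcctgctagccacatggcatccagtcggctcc

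The windows of Platr10 and Platr5 held none of the 7 motifs. That of Platr7 held AAGGTCA and GGAATG, both on the opposite strand, and that of Platr22 held GGAATG 3 times, at 173, 25 and 1 bases before the start. Among the windows not printed, that of Platr14 held CATTGT at 125 and GGGTGTG at 32 bases before the start, that of Platr26 held GGGTGTG, that of Platr3 held GGAATG and that of Platr20 none. The octamer was in 0 of the 8 windows and in 1.74% of all 32851 windows of the RefSeq table. The joint OCT4-SOX2 site, searched with its exact letters, was in 0 of the 8 and in 0 of all windows. GGAATG was in 3 of the 8 and in 14.7% of all windows, GGGTGTG in 2 and 7.95%, CATTGT in 1 and 12.6%, AAGGTCA in 1 and 4.72%, and GGAAGGAA in 0 and 3.79%. CATTGT and ATGCAAAT are parts of the joint site, so those searches overlap. The CpG dinucleotide, dense in the promoters of broadly expressed genes, occurred between 0 times (Platr7) and 9 times (Platr20) in a window, against a median of 7 over all windows, and Platr10 had 1, Platr5 2 and Platr22 6.

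Most of the measured Platr genes read higher in the cells with EWS-OCT4A-GFP. Of the 9 genes, 8 had a difference above 0, 5 were higher by 2-fold or more and 0 were lower by that much. The values are RMA values on the log2 scale, and each difference is the value with the fusion less the value with GFP alone. A gene was counted as higher or lower when the difference was at least 1 (2-fold) and the higher of its 2 values reached a floor of 4.10, which is the median over every value in the table. All 9 genes reached that floor. By the same rule 9.31% of all 13516 genes at or above the floor were higher and 11.9% were lower. Because the genes were chosen with these values known, their count is a description of the set. The median difference of the 9 genes was 1.03, against 0.00 over all genes, and the differences ran from -0.37 to 4.03.

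**Figure D1:**
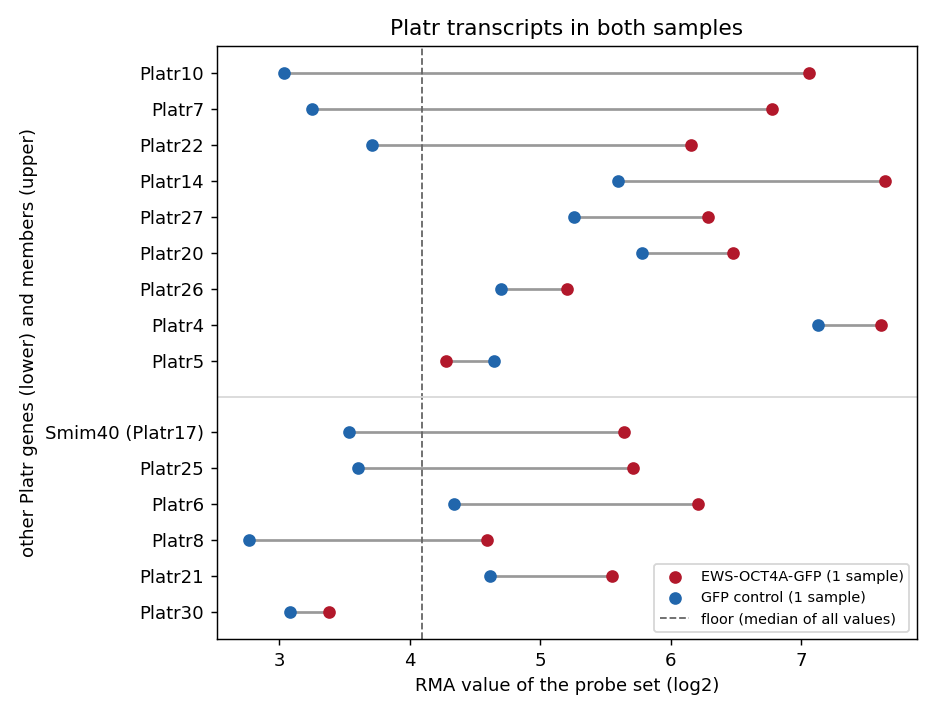
RMA values (log2, horizontal axis) of the 9 measured Platr members (upper block) and of 6 other measured genes that carry or carried a Platr name (lower block) in the EWS-OCT4A-GFP sample (red) and the GFP control (blue), 1 sample each, with the floor of 4.10 as a dashed line. The control points of Platr10, Platr7 and Platr22 in the upper block and of Smim40, Platr25, Platr8 and Platr30 in the lower block lie left of the floor, and Platr5 is the 1 gene whose red point lies left of its blue point.

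Platr10 (probe set 17405998), which has been implicated in the control of the pluripotency network in mouse embryonic stem cells, read 7.06 with the fusion and 3.04 in the control. The log2 difference was 4.03, or 16.3-fold, and among 22180 genes ordered by difference it stood 23rd from the top, or 54th with every value under the floor set to the floor. Only the value with the fusion lay above the floor, and with the control value set to the floor the difference was 7.80-fold. How far values under the floor lie above background is unknown, so the larger fold is uncertain, and the same holds for the other genes with a value under the floor.

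Platr7 (probe set 17243621) read 6.77 with the fusion and 3.25 in the control, a difference of 3.52 or 11.5-fold, and 6.40-fold with the control value set to the floor. Platr22 (probe set 17217830), which has been linked to enhancer activity and pluripotency, read 6.15 and 3.71, a difference of 2.44 or 5.42-fold, and 4.16-fold with the control at the floor. In these 3 genes, Platr10, Platr7 and Platr22, the control value lay under the floor while the fusion value lay well above it. They passed the floor through the fusion sample alone, a route open only to genes that read higher there.

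Platr14 (probe set 17373844), whose depletion in embryonic stem cells has been reported to alter the expression of developmental genes, read 7.64 and 5.60. Its difference was 2.04, or 4.11-fold, with both values above the floor. It is the gene with the largest difference that did not depend on a value under the floor. Platr27 (probe set 17393766) read 6.28 and 5.26, a difference of 1.03 or 2.04-fold, just past the threshold. It did not pass after each array was centred on its median (0.99) or after loess centring (0.94), so that 4 of the 9 genes were then at least 2-fold higher.

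The remaining 4 measured genes stayed within 2-fold, with both values of each above the floor. Platr20 (probe set 17262464) read 6.48 and 5.78, a difference of 0.70. Platr26 (probe set 17371790) read 5.20 and 4.70, a difference of 0.50. Platr4 (probe set 17405017), which has been studied for a part in mesoderm and heart muscle differentiation together with the TEAD factor TEAD4, read 7.61 and 7.13, a difference of 0.48. Platr5 (probe set 17215557) read 4.28 in the fusion sample and 4.65 in the control, a difference of -0.37. It was the 1 measured gene of the set that was lower with the fusion, and its values were close to the floor, where RMA compresses differences. With 1 sample a line, it is unknown whether any of these 4 differences exceeds the spread between samples.

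The Platr name extends beyond the 10 genes, and the others were taken from the numbers Platr1 to Platr32 rather than from their values. Of 22 further numbers, 6 had a probe set of their own under the current symbol, 1 of them as Smim40, listed by RefSeq as formerly Platr17 and as protein-coding. Platr25 (probe set 17293534) read 5.71 with the fusion and 3.60 in the control, a difference of 2.11, or 3.05-fold with the control at the floor. Smim40 read 5.65 and 3.53, a difference of 2.11, or 2.93-fold with the control at the floor. Platr6 (probe set 17239687) read 6.21 and 4.34, a difference of 1.86 with both values above the floor.

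Platr8 (probe set 17389132) read 4.59 and 2.77, a difference of 1.82 that became 1.41-fold with the control at the floor. Platr21 (probe set 17544845) read 5.55 and 4.61, a difference of 0.93. Platr30 had 2 probe sets, with differences of 0.30 and 0.27, and all 4 values lay under the floor, so no fold is given. All 6 genes had a difference above 0, 4 of the 5 at or above the floor were at least 2-fold higher, and the median difference was 1.84. Over all 15 measured genes with a present or former Platr name, 14 had a difference above 0. Of the 14 at or above the floor, 9 were higher by 2-fold or more and 0 were lower by that much. The shares over all 13516 genes at or above the floor were 9.31% higher and 11.9% lower. Among the 9, Platr10, Platr7, Platr22, Platr25, Smim40 and Platr8 passed the floor through the fusion sample alone. Platr8 was counted though it fell short of 2-fold with the control at the floor.

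As a class, long noncoding RNAs at or above the floor were higher by 2-fold more often than lower. RefSeq's gene type put 1926 of the measured genes in that class, and 557 of them reached the floor. Of these, 13.1% were higher and 3.05% lower by 2-fold or more with the fusion. With every Platr gene taken out, 66 of 545 were higher and 17 lower. Some of the higher genes, such as Gm13580 (3.01 in the control), passed the floor through the fusion sample alone. Some of the lower ones, such as Rian (3.03 with the fusion), passed it through the control alone. How far these counts rest on such genes was not tested. The median difference of all 1926 genes was 0.02. Ordered by difference, Platr10 stood 2nd, Platr7 3rd, Platr22 8th and Platr14 11th of the 1926. The order among the first genes rests in part on control values under the floor, and with every such value set to the floor, an ordering chosen after seeing the data, these 4 genes stood 3rd, 5th, 8th and 9th. Platr27 stood 73rd, or 50th with values set to the floor, and Platr5 1693rd or 1867th. Ahead of Platr10 in the deposited values stood Gm13580, with 7.52 and 3.01, a difference of 4.51 that became 3.42 with the control at the floor. Gm19705, with both values above the floor and a difference of 3.06, came ahead of Platr10 (2.96) only when values were set to the floor. Gm13580 and Gm19705 were named after their values were seen.

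**Figure D2:**
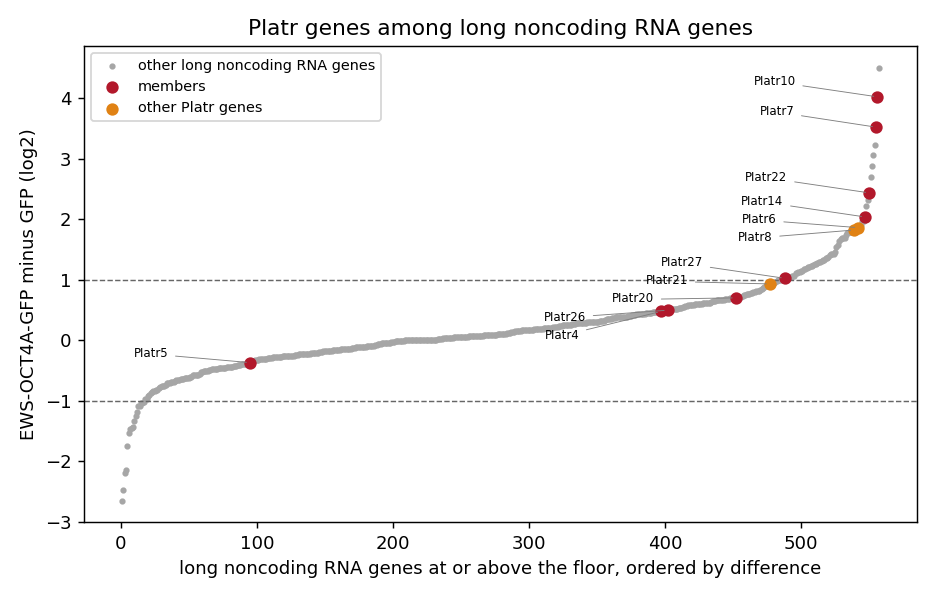
Differences (EWS-OCT4A-GFP minus GFP, log2, vertical axis) of the 557 long noncoding RNA genes at or above the floor, ordered from lowest to highest along the horizontal axis, with 1 point per gene, the 9 Platr members in red, other Platr genes of that type in orange and dashed lines at 2-fold. Platr10 and Platr7 lie next to the right-hand end, and Platr5 is the 1 member below 0.

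Long noncoding RNAs known for other roles did not read one way. Of 40 listed, 28 had a probe set of their own, with 14 above 0 and 13 below. Lncenc1, the current symbol of Platr18, was also among the 40 but had no probe set of its own. The median difference of the 28 was 0.02, which turned to -0.01 when each array was centred on its median. Of the 21 at or above the floor, 6 were higher and 4 lower by 2-fold or more. Snhg3, a host gene of small nucleolar RNAs, read 8.71 with the fusion and 6.91 in the control, a difference of 1.80. Rian, from the imprinted Dlk1-Dio3 region, differed by -2.48 (3.03 against 5.51) and Airn, the imprinted transcript antisense to Igf2r, by -2.19 (3.69 against 5.88). With the fusion values set to the floor these differences were -1.41 and -1.79. Xist, the RNA of X inactivation, differed by -1.74 (4.71 against 6.44).

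Protein-coding genes of the pluripotency network read higher with the fusion as well. Of 24 listed factors, all of which were measured, 24 had a difference above 0, with a median of 1.71. Of the 23 at or above the floor, 19 were higher by 2-fold or more. Over all genes at or above the floor, 9.31% were higher and 11.9% lower. Some of the 19, Nr0b1 and Gdf3 among them, passed the floor through the fusion sample alone. This list and the marker lists below were drawn up with earlier results of these data known, so their counts are descriptions. Nr0b1, which encodes an orphan nuclear receptor, read 9.60 and 1.96, a difference of 7.65, or 5.51 with the control at the floor. Gdf3, which encodes a TGF-beta family ligand, read 8.07 and 3.54, a difference of 4.53, or 3.97 with the control at the floor. Tdgf1, the Nodal co-receptor gene, differed by 6.04 and Nanog by 4.61, both with their 2 values above the floor. Pou5f1 itself read 5.37 and 5.24, a difference of 0.13, and the sources used here do not say whether its probe set detects the fusion.

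Trophectoderm markers read the other way. All 15 were below 0, 12 of them at least 2-fold lower, with a median difference of -3.06 and a median level of 4.43 with the fusion and 7.84 in the control. The simple keratins Krt18 (4.35 against 10.7) and Krt8 (5.70 against 11.0), the transcription factor gene Gata2 (4.29 against 9.74) and the tight junction gene Cldn4 (5.67 against 10.2) differed most. The transcription factor genes Cdx2 (-0.55), Elf5 (-0.81, or -0.34 with its fusion value set to the floor) and Tead4 (-0.30) stayed within 2-fold. Fewer pluripotent cells in a culture and less of a transcript in each cell cannot be told apart in these bulk samples. The part of the trophectoderm difference in the Platr values was not tested. Of 10 primitive endoderm markers, all measured, the median difference was -0.25, and -0.68 over the 8 at or above the floor, of which 4 were lower and 1 higher by 2-fold or more. Lama1 (2.86), Dab2 (-2.65), Col4a1 (-2.62) and Gata6 (-2.21, or -1.90 with its fusion value of 3.79 set to the floor) differed most. Of the fibroblast markers, listed for feeder cells, 2 of the 7 at or above the floor were lower by 2-fold or more, Postn (-4.04, or -1.97 with its fusion value of 2.03 set to the floor) and Acta2 (-1.64), while Col3a1 (-0.28) and Thy1 (0.10) stayed within 2-fold.

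**Figure D3:**
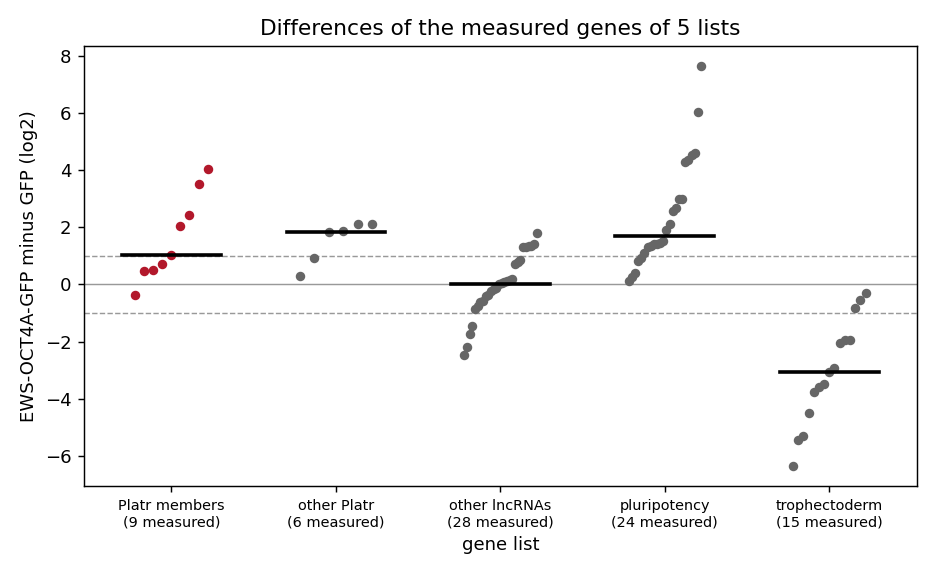
Differences (EWS-OCT4A-GFP minus GFP, log2, vertical axis) of the measured genes of 5 lists (horizontal axis), 1 point per gene in order within a list, with a black bar at the median. The median of the 9 Platr members is 1.03 and that of the 6 other Platr genes 1.84, against 0.02 for other long noncoding RNAs (-0.01 after median centring), 1.71 for pluripotency factors and -3.06 for trophectoderm markers.

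The genes next to a noncoding RNA are often looked at because some such RNAs share enhancers with a neighbour. For the 9 measured genes, the nearest protein-coding gene on each side gave 18 neighbours, of which 15 had a probe set of their own. Of the 13 at or above the floor, 3 were higher and 0 lower by 2-fold or more, and the median difference of the 15 was -0.04. Over all genes at or above the floor, 9.31% were higher and 11.9% lower. Nr5a2, among the higher neighbours, was also in the list of pluripotency factors. No protein-coding gene overlapped any of the 10 Platr genes in RefSeq.

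Platr22 was the 1 gene with both neighbours at least 2-fold higher. It lies on chromosome 1 between Zfp281, which encodes a zinc finger factor of the pluripotency network, and Nr5a2, which encodes the nuclear receptor LRH-1. Zfp281 read 7.70 with the fusion and 6.33 in the control, a difference of 1.37, and Nr5a2 read 7.94 and 6.61, a difference of 1.33. The long noncoding RNA gene Gm19705, which lies between Zfp281 and Platr22, read 8.03 and 4.97, a difference of 3.06. All 4 of these genes read higher with the fusion, and the difference was larger for both noncoding genes than for both coding ones.

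Other neighbours differed from their Platr gene. Next to Platr10, Golim4, which encodes a Golgi membrane protein, read 5.51 in both samples with a difference of -0.005, and Serpini1, which encodes neuroserpin, read 3.39 and 2.59, both under the floor. Next to Platr7, Ckap4, which encodes a membrane protein of the endoplasmic reticulum, was higher by 1.08 (7.79 against 6.71), while Tcp11l2 differed by -0.04 with both values under the floor. Cstf3, a subunit gene of the cleavage stimulation factor next to Platr14, differed by 0.66 (7.59 against 6.94). Ctnnbl1, a splicing-associated gene on one side of Platr27, differed by 0.79 and Blcap on the other by -0.52.

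The protein-coding neighbours of the genes that stayed within 2-fold were themselves within 2-fold and below 0 in each measured case. Most genes on the array stayed within 2-fold too, since 9.31% were higher and 11.9% lower among those at or above the floor. Some neighbours of the higher genes were also below 0, such as Blcap, while others, such as Ctnnbl1, were above it. A link between a Platr gene and its neighbours was not tested. Beside Platr4, Jade1, which encodes a chromatin reader of a histone acetyltransferase complex, differed by -0.39 and Pgrmc2 by -0.47. Beside Platr26, the integrin gene Itga6 differed by -0.64 and the homeobox gene Dlx2 by -0.52. Zfp354a beside Platr20 differed by -0.34 and Sh3bp4 beside Platr5 by -0.16. The nearest long noncoding RNA genes with a probe set were not all below 0. Gm17250 beside Platr26 was higher by 1.80 (6.09 against 4.29). On one side of Platr20, with 8 protein-coding genes between, D930048N14Rik was higher by 1.97 (6.59 against 4.62). On the other side 9230009I02Rik differed by -0.64, with both values under the floor. These noncoding genes were named after their values were seen. For Platr3, which was not measured, the neighbours Plcb1 and Plcb4, which encode phospholipases C, differed by 0.00 and 1.24.

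**Figure D4:**
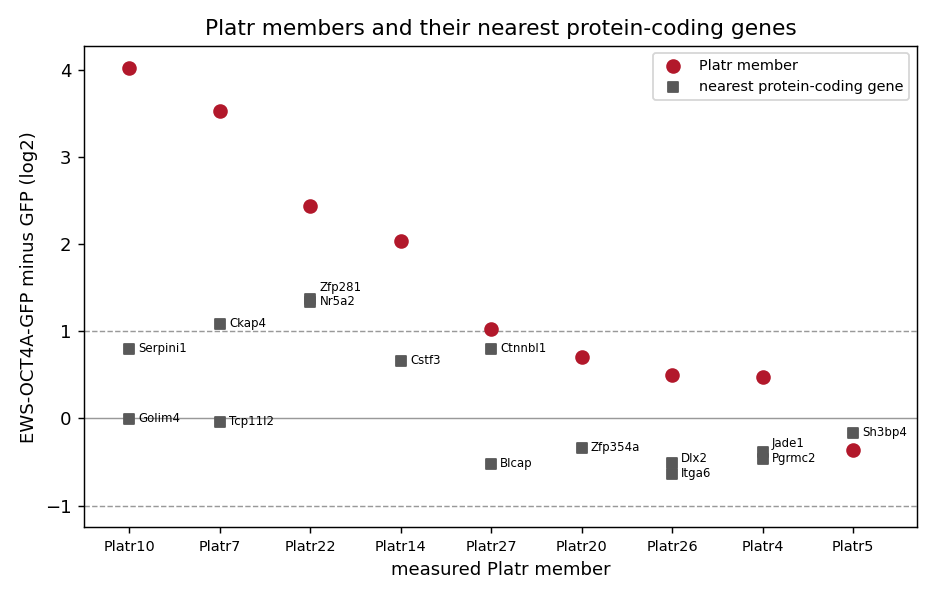
Differences (EWS-OCT4A-GFP minus GFP, log2, vertical axis) of the 9 measured Platr members (red circles, horizontal axis) and of their nearest protein-coding genes on each side that had a probe set (grey squares). Zfp281 and Nr5a2 beside Platr22 and Ckap4 beside Platr7 are the 3 neighbours above 1.

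The genes whose pair of values lay nearest to those of Platr10 and Platr7 were found by the straight-line distance between the 2 sample values. The distance sets values of different probe sets side by side, so it does not compare transcript levels, and the control values of these genes lay under the floor. Nearest to Platr10 was Etv1, an ETS transcription factor gene, with 7.00 and 3.12 at a distance of 0.10 (log2), followed by Platr7 at 0.36 and Car13, a carbonic anhydrase gene, at 0.44. Nearest to Platr7 were Cnpy1 at 0.12, Etv1 at 0.27 and Lefty2, which encodes an inhibitor of Nodal, at 0.27.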

How the data were processed

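The authors deposited 1 table with a log2 value for each of 33793 probe sets in each of 2 samples. Per the submitters' processing notes these are RMA values from Affymetrix Expression Console 1.1. RMA corrects background, quantile-normalizes the arrays and summarises probes, so a shift of most transcripts in 1 direction would not be seen. The table does not state the log base; log2 was taken from RMA's convention and the range of 0.618 to 13.0. Precision is limited by the number of arrays, and the sources used here do not say whether a column is 1 array or a mean.

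Names came from the platform annotation: 23521 had 1 symbol, 1814 several and 8458 none, and 23328 of the single-symbol ones had their gene ID in RefSeq (GRCm38.p6), which gave gene types, former symbols and neighbours. The annotation's build is unknown, so the only coordinates given are those of the RefSeq promoter windows, not of genes or probe sets. The probe set with the highest mean stood for a gene. With 1 sample per group no test was run. The Platr genes and the lists were chosen with earlier results of these data known. Named genes were every member and other measured Platr gene, and up to 4 genes of each list by size of difference at or above the floor. The protein-coding neighbours of each measured member were also named, as were the 3 genes nearest to each of 2 members, leaving out predicted and small RNA symbols. Pou5f1, Cdx2, Elf5, Tead4, the neighbours of Platr3, Gm13580, Gm19705, Gm17250, D930048N14Rik and 9230009I02Rik were added to these. Alternatives covered fold threshold, floor, median, quantile and loess (span 0.3) centring and averaging of probe sets. The counting was tested on simulated data. Python 3.11.15, numpy 2.4.6, pandas 2.3.3, statsmodels 0.14.6 and matplotlib 3.10.9 were used.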

Additional observations from a re-analysis of the deposited data

How the results depend on the processing

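No paired analysis was possible because there was 1 sample per line, and for the same reason no replicate was left out. The count of 5 Platr members at least 2-fold higher became 6 at 1.5-fold and 4 at 3-fold, under median centring and under loess centring, while 0 were lower under every alternative run. The differences of the 9 members moved by between -0.09 and 0.04 under the other normalizations. Averaging probe sets could not change them, since each member had 1 probe set. With the floor at the 75th percentile (5.80) or at a log2 value of 6 the median of the members was 2.04, since Platr5 and Platr26 drop out. Over the whole array, 18255 probe sets reached the floor of the main counts. Of these, 1696 were higher and 1936 lower by 2-fold or more, against 3784 and 3453 at 1.5-fold and 611 and 937 at 3-fold. The array count of higher probe sets thus also rose at 1.5-fold and fell at 3-fold, as the count of members did. With the floor at 6, 1126 probe sets were higher by 2-fold or more. List medians moved by at least 0.1 in these cases: pluripotency factors to 2.01 and 2.12 with the higher floors and 1.61 under loess, trophectoderm to -3.28 and -3.50 with the higher floors and -2.92 with averaged probe sets, primitive endoderm to -2.41 and -2.62, and fibroblast markers to -2.84 with either higher floor. By construction the higher floors leave fewer genes, whereas the main list medians used every measured gene. Of the fibroblast markers only Postn and Acta2 were left. Of the primitive endoderm markers Lama1, Col4a1, Dab2 and Gata6 were left at 5.80, and Gata6 also dropped out at 6. These medians thus describe other sets of genes than the main ones. The floors and averaging for these lists were chosen after seeing the data. Signal over background is unknown, which limits what can be said of values under the floor.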
